A study of Mus musculus with 3 samples.

Results

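The mural and contractile genes described here are 10 genes of the mouse. Rgs5, Kcnj8, Abcc9, Pdgfrb, Cspg4 and Mcam are 6 genes that are widely used to mark pericytes, and Acta2, Tagln, Myh11 and Des are 4 genes of the contractile apparatus. The rule lists them by name and uses no measured value, although the list was drawn up with earlier results of these data known. All 10 were found by identifier among the 21446 genes that the 3 libraries share. The question was which mesenchymal cells of the tooth root carried the pericyte genes, which carried the contractile genes, and whether these were the same cells.

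Pericytes and vascular smooth muscle cells, together called mural cells, wrap the endothelium of blood vessels and depend on platelet-derived growth factor signals through Pdgfrb and on Notch3, a Notch receptor that mural cells carry. Contractile genes are a hallmark of smooth muscle, but fibroblasts also switch on Acta2 and Tagln when they come under tension or in wounds, so these genes alone do not name a mural cell. The periodontal ligament and the tissue around the root tip are rich in vessels and in fibroblasts that bear mechanical load.

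Cells were sorted by fluorescence for the Pthrp-mCherry knock-in reporter from dissociated mandibular molars and profiled with the 10x Chromium 3′ kit at postnatal day 15 (P15), P25 and 8 weeks. Each time point is 1 library made from the pooled mandibles of C57BL/6 mice of both sexes, and with no replicate of any time point, differences between ages carry no test. All 3 libraries carry the same knock-in allele and no further treatment, the mCherry sort stands between the tissue and every share of cells given here, and the labels call the sorted cells cementoblasts and their precursors. The deposited values are UMIs, counts of distinct tagged molecules of a gene in a cell. Levels are given as counts per 1000000 of the summed UMIs of a class of cells (CPM), with exact Poisson intervals at 95% that cover counting error only.

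The P15, P25 and 8-week libraries held 12926, 8971 and 5192 cells with 188157997, 169712592 and 46234378 UMIs. The P25 file names an older version of the counting software and a larger gene reference than the others, so software and reference cannot be told apart from that time point. Pairs of libraries shared 13 to 26 cell barcodes. Cells with 0 UMIs of Ptprc (immune), Epcam (epithelial) and Pecam1 (endothelial) were taken as mesenchymal, which kept 10379 (80.3%), 7784 (86.8%) and 4998 (96.3%) of the cells. They were gated by 5 genes: Notch3, the matrix-modifying carboxypeptidase gene Cpz, the bone sialoprotein gene Ibsp, the mineralizing-cell gene Ifitm5 and the transcription factor gene Hand2. A cell passed a gate with at least 2 UMIs of its gene (10 for Ibsp) and belonged to it if it passed none of the other 4. Gated cells are called by their gate gene and not by a cell type.

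In the order P15, P25, 8 weeks, the Notch3 gate held 329, 153 and 33 cells, or 3.17%, 1.97% and 0.66% of mesenchymal cells, with medians of 11840, 15185 and 10647 UMIs per cell. The Cpz gate held 1292, 1149 and 390 cells, the Ibsp gate 1064, 772 and 555, the Ifitm5 gate 214, 65 and 26, and the Hand2 gate 184, 187 and 120. No gate was passed by 6356, 3488 and 2813 cells, and more than 1 gate by 940, 1970 and 1061. Cells with 1 Notch3 UMI, just outside the gate, numbered 581, 392 and 140, and those with 2 to 4, just inside it, 249, 183 and 39 when cells that also passed other gates were counted. Of epithelial cells, 6.65%, 20.4% and 12.1% also had at least 2 Notch3 UMIs, so Notch3 alone did not mark mural cells in these libraries.

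The gated cells were checked against marker lists. The 8 mural markers (Rgs5, Notch3, Kcnj8, Abcc9, Cspg4, Cox4i2, Ndufa4l2 and Higd1b) summed to 6091, 668 and 871 CPM in the Notch3 gate, in the same order of libraries. They summed to between 134 and 248 in the other 4 gates and to 215, 254 and 372 in cells that passed none. The gate gene itself made up 425, 187 and 248 CPM of the sums in the Notch3 gate, and 4 of the 8 are members, so part of the excess was set by the rule. The 3 that are neither (Cox4i2, Ndufa4l2 and Higd1b) summed to 731, 216 and 287 CPM in the Notch3 gate, to between 59.8 and 173 in the other gates and to 139, 179 and 251 in cells that passed none. Higd1b, a pericyte gene, was at 150 CPM in the Notch3 gate at P15 and at 0 there at P25 and 8 weeks. The 6 epithelial markers summed to 705, 1343 and 131 CPM in the Notch3 gate, above each other gate at each time point, and Epcam was at 0 by definition. Cells that passed no gate held 1047, 1314 and 346 CPM of the 6. The 7 endothelial markers summed to 46.0, 11.8 and 8.19 CPM in the Notch3 gate against 4471 to 6649 in Pecam1 cells. The other 4 gates held less of the 7 at each time point (7.08 to 15.2, 2.32 to 5.73 and 0 to 3.89 CPM). In the Notch3 gate the 6 immune markers summed to 26.4, 3.53 and 5.46 CPM against 5566 to 8038 in Ptprc cells, and the 6 skeletal muscle markers to 3.27, 3.13 and 10.9 CPM. The Ibsp gate held 16573 to 25063 CPM of 5 cementoblast α markers, Ibsp among them, the Ifitm5 gate 3051 to 31382 CPM of 4 cementoblast β markers, Ifitm5 among them, and the Hand2 gate 4137 to 8204 CPM of 5 periapical markers, Hand2 among them. Ibsp itself made up 15440 to 23854 CPM in its gate, so that sum was set mostly by the gate and does not check its cells. Ifitm5 made up 450 to 895 CPM and Hand2 256 to 371 CPM in their gates.

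The promoters of 4 members are shown because Kcnj8, Abcc9, Rgs5 and Acta2 were called higher in the Notch3 gate, Acta2 without being higher there at P25, and because Kcnj8 and Abcc9 are neighbours on chromosome 6. RefSeq promoters (GRCm38.p6, 250 bases before to 50 bases after the start of the gene) matched 7 of the 10 members. Both strands of each window were searched for TGGGAA, the core of the sequence bound by Rbpj, the DNA-binding partner of Notch receptors, and for the strict CArG box bound by serum response factor. Capitals mark TGGGAA, at bases 251 to 256 of the Kcnj8 window, 30 to 35 of the Abcc9 window and 224 to 229 of the Acta2 window. The letters were not found in the Rgs5 window. Rgs5 is read from the plus strand (chr1:169655251-169655550), and Kcnj8 (chr6:142571565-142571864), Abcc9 (chr6:142702225-142702524) and Acta2 (chr19:34255324-34255623) from the minus strand.
Rgs5: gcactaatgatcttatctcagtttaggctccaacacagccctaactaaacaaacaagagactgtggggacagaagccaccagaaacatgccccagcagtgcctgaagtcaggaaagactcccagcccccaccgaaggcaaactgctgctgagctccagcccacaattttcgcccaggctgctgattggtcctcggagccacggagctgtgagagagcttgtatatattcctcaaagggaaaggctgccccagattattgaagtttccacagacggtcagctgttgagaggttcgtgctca
Kcnj8: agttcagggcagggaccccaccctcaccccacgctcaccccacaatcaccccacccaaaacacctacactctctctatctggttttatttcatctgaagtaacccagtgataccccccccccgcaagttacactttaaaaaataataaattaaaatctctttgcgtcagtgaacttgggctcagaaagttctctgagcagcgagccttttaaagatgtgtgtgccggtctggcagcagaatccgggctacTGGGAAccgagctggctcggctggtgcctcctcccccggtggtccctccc
Abcc9: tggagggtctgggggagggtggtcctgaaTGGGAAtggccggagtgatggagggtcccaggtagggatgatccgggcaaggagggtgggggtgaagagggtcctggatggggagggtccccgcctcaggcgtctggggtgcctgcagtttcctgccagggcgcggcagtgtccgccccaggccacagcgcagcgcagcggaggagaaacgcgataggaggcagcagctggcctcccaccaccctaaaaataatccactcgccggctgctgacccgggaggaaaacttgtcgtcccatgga
Acta2: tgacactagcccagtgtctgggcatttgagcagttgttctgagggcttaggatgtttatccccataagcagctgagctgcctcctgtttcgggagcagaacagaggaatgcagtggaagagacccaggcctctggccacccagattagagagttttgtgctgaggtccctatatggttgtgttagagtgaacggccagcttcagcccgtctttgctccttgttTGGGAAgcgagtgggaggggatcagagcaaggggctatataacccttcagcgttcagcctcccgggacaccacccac

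TGGGAA occurred in 8388 of 32817 RefSeq promoters of this length (25.6%), so a match in 3 of 7 members describes the letters only. The strict CArG box occurred in 535 of the 32817 (1.63%) and in none of the 7 matched windows. Looser forms of the box, with other bases in its core, were not searched for. In the GENCODE annotation of GRCm38, Kcnj8 spans chr6:142564837-142571614 and Abcc9 chr6:142587862-142702315, both on the minus strand, with 16247 bases and 0 annotated genes between them. Rgs5 lies at chr1:169655501-169695813, Cspg4 at chr9:56865033-56899870, Mcam at chr9:44134469-44142727 and Des at chr1:75360329-75368579, all on the plus strand, and Pdgfrb on the plus strand of chromosome 18. Acta2 lies at chr19:34241090-34255590, Tagln at chr9:45929619-45936058 and Myh11 at chr16:14194535-14291372, all on the minus strand. Tagln overlaps Pcsk7 on the opposite strand, and 4 members (Abcc9, Mcam, Tagln and Des) overlap an annotated antisense gene. Acta2 belongs to a family of near-identical actins, and how shared reads were counted is not given in the sources used here.

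Of the pericyte genes, all but Cspg4 and Mcam were highest in Notch3-gated cells at each time point, with their highest levels at P15. Rgs5, a regulator of G protein signalling that is among the most abundant pericyte transcripts, reached 4237 CPM [4176, 4299] in the Notch3 gate at P15, 108 [95.8, 122] at P25 and 60.1 [37.6, 90.9] at 8 weeks. All other gates lay between 11.6 and 27.4 CPM, between 2.79 and 14.2 and between 11.9 and 34.6. The Notch3-gated cells were therefore the highest gate in each library, but by very different margins. The low levels rested on few cells, since 1 cell held 128 of the 276 Rgs5 UMIs at P25 and 1 cell held 12 of the 22 at 8 weeks. Immune cells held 77.2 CPM of Rgs5 at P15, with 477 of 717 UMIs in 1 cell, and epithelial cells 41.0. No gate but Notch3 stood above these cells at P15. Pecam1 cells held 277 CPM at P25, all 66 UMIs of them in 1 cell. At 8 weeks the cells that passed no gate reached 48.0 CPM [45.0, 51.2], an interval inside that of the Notch3 gate. When further lineage genes were also required to be at 0, Rgs5 in the Notch3 gate was at 26.0 CPM at P25, from 36 UMIs, and at 5125 and 68.0 at P15 and 8 weeks.

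Kcnj8 and Abcc9 encode the pore and the sulfonylurea receptor subunit of the ATP-sensitive potassium channel of mural cells. Kcnj8 was at 300 CPM [283, 316] in the Notch3 gate at P15, 53.3 [44.7, 63.0] at P25 and 71.0 [46.4, 104] at 8 weeks. Its next highest gate was Hand2 with 34.2, 15.8 and 15.4 CPM, and the Ibsp gate held 6.83, 4.64 and 2.69. Abcc9 was at 352 CPM [335, 371], 89.3 [78.1, 102] and 172 [132, 220] in the Notch3 gate and at 71.1, 33.8 and 27.7 in the Hand2 gate. For both channel genes the Notch3 gate was highest and the Hand2 gate next at each time point, with intervals that did not overlap.

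The 2 subunits tended to be found in the same cells. At P15, 205 of the 329 Notch3-gated cells held UMIs of both, 17 of Kcnj8 alone and 55 of Abcc9 alone. Abcc9 was thus detected in 92.3% of the Notch3-gated cells with Kcnj8 and in 51.4% of those without it, and the shares were 80.0% and 27.2% at P25 and 72.7% and 31.8% at 8 weeks. The order was the same in the Cpz gate (45.9% and 13.8% at P15, 45.5% and 12.6% at P25, 42.9% and 8.67% at 8 weeks). These shares are of unthinned cells, and deeper cells have more chance to show both genes, whose part in the order was not tested.

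Pdgfrb, the receptor for the growth factor with which endothelium recruits pericytes, was found in every gate. It was at 494 CPM [474, 516], 252 [233, 273] and 374 [314, 442] in the Notch3 gate, at 143, 144 and 199 in the Ibsp gate, at 66.6, 66.8 and 92.4 in the Cpz gate, at 72.8, 73.6 and 141 in the Hand2 gate and at 31.4, 57.5 and 96.9 in the Ifitm5 gate. At each time point the Notch3 gate was highest and the Ibsp gate next. Immune cells, which should lack it, were at 26.8 and 45.8 CPM at P15 and P25, with 1 cell holding 40 of the 162 UMIs at P25.

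Cspg4, the NG2 proteoglycan gene that is used to label pericytes, did not follow the other pericyte genes. It was at 45.8 CPM [39.6, 52.7] in the Notch3 gate at P15, 14.1 [9.88, 19.5] at P25 and 32.8 [16.9, 57.2] at 8 weeks. Ibsp-gated cells held 42.7, 48.2 and 64.1 CPM and Ifitm5-gated cells 30.4, 49.1 and 54.3, while the Cpz gate held 10.1, 15.1 and 17.0. Both gates of mineralizing-cell genes stood above the Notch3 gate at P25, with intervals that did not overlap, and at 8 weeks the intervals met. With further lineage genes at 0, the P25 level in the Notch3 gate was 8.67 CPM. Cells that passed more than 1 gate held 47.0, 59.0 and 60.8 CPM.

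Mcam, an adhesion molecule of pericytes and endothelium, was at 87.4 CPM [78.8, 96.7] in the Notch3 gate at P15 and at 3.53 [1.61, 6.69] and 2.73 [0.0691, 15.2] at P25 and 8 weeks, where the sums held 9 UMIs and 1 UMI. Pecam1 cells held 147, 160 and 103 CPM. At P15 the Notch3-gated cells were the only mesenchymal gate above 5 CPM, and at the later time points no gate was above the immune cells' interval.

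**Figure D1:**
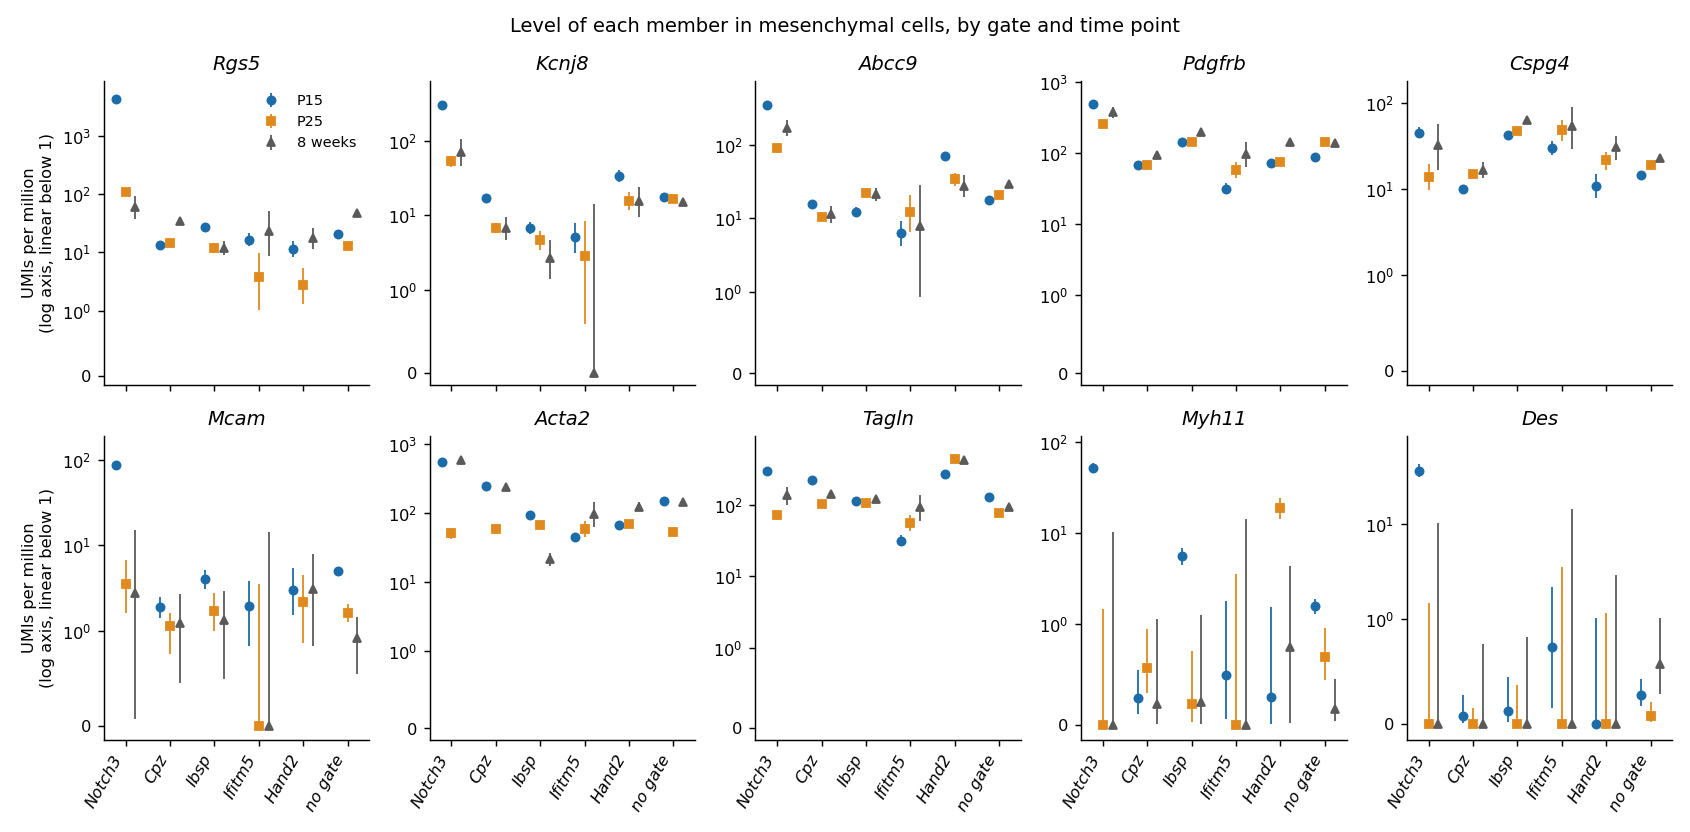
Level of each member in CPM (log axis, linear below 1) in the mesenchymal cells of each gate and in cells that passed no gate; points are the P15, P25 and 8-week libraries and bars exact 95% Poisson intervals. Rgs5, Kcnj8 and Abcc9 are highest in the Notch3 gate at each time point, Cspg4 is not, and Tagln is highest in the Hand2 gate at P25 and 8 weeks.

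Among the contractile genes, Acta2 and Tagln were spread over all gates, while Myh11 and Des were rare. Acta2, smooth muscle actin, was at 550 CPM [528, 572] in the Notch3 gate at P15, 50.5 [42.2, 60.1] at P25 and 571 [496, 653] at 8 weeks. Cpz-gated cells held 242, 58.4 and 238 CPM, the Hand2 gate 67.3, 69.2 and 123, the Ibsp gate 94.3, 66.9 and 21.3, and cells that passed no gate 150, 53.0 and 142. At P15 and 8 weeks the Notch3 gate was highest and the Cpz gate next, and at P25 all gates lay between 50.5 and 69.2 CPM, with the Notch3 gate lowest, and at 30.3 when further lineage genes were also at 0. The 8-week level rested on 209 UMIs, 80 of them in 1 cell. Immune cells held 45.7 CPM at P15, with 425 UMIs, so the Ifitm5 gate at 44.3 was at background there.

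Tagln, the actin-binding protein transgelin, was highest in another gate. The Hand2 gate held 264 CPM [248, 282] at P15, 435 [413, 459] at P25 and 422 [388, 459] at 8 weeks, against 295, 71.3 and 134 in the Notch3 gate, 218, 103 and 142 in the Cpz gate and 112, 105 and 121 in the Ibsp gate. At P25 and 8 weeks Hand2-gated cells stood above every other gate, and at P15 the Notch3 gate was slightly higher.

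Myh11 and Des, the smooth muscle myosin heavy chain and the intermediate filament desmin, rested on few UMIs. Myh11 was at 51.6 CPM [45.1, 58.9] in the Notch3 gate at P15, with 221 UMIs, and at 0 UMIs there at P25 and 8 weeks, which allows levels of up to 1.18 and 8.19 CPM at 3 UMIs a sum. At P25 the highest gate was Hand2, at 18.6 CPM [14.2, 24.0] from 60 UMIs, while 154 of the 258 mesenchymal UMIs lay in cells that passed more than 1 gate, and at P15 the Ibsp gate held 5.49 CPM from 90 UMIs. Des was at 36.2 CPM [30.7, 42.4] in the Notch3 gate at P15, with 155 UMIs, and at 0 there later. No other gate held more than 3 Des UMIs in any library.

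The UMIs of a member were also divided among the gates. The Notch3 gate held 2.91%, 2.02% and 0.846% of all mesenchymal UMIs at P15, P25 and 8 weeks. At P15 it held 80.7% of the Rgs5 UMIs, 76.0% of Des, 44.9% of Myh11, 39.7% of Mcam, 36.1% of Kcnj8, 34.6% of Abcc9, 14.2% of Pdgfrb, 10.1% of Acta2, 5.95% of Tagln and 5.93% of Cspg4. At 8 weeks the same shares ranged from 0% for Myh11 and Des to 6.31% for Kcnj8. The Rgs5 share fell from 80.7% to 15.2% at P25 and 1.57% at 8 weeks, so its mean over the libraries was 32.5% ± 42.3 (SD, n = 3), or 8.39% without P15. The Cpz gate held 27.5%, 24.3% and 24.5% of the Acta2 UMIs, beside 18%, 19.6% and 11.3% of all UMIs. Cells that passed no gate held 47.2%, 37.4% and 58.5% of them, beside 49.8%, 33.3% and 45.1% of all UMIs. In such sums, fewer cells that carry a gene and less of its RNA per cell cannot be told apart.

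**Figure D2:**
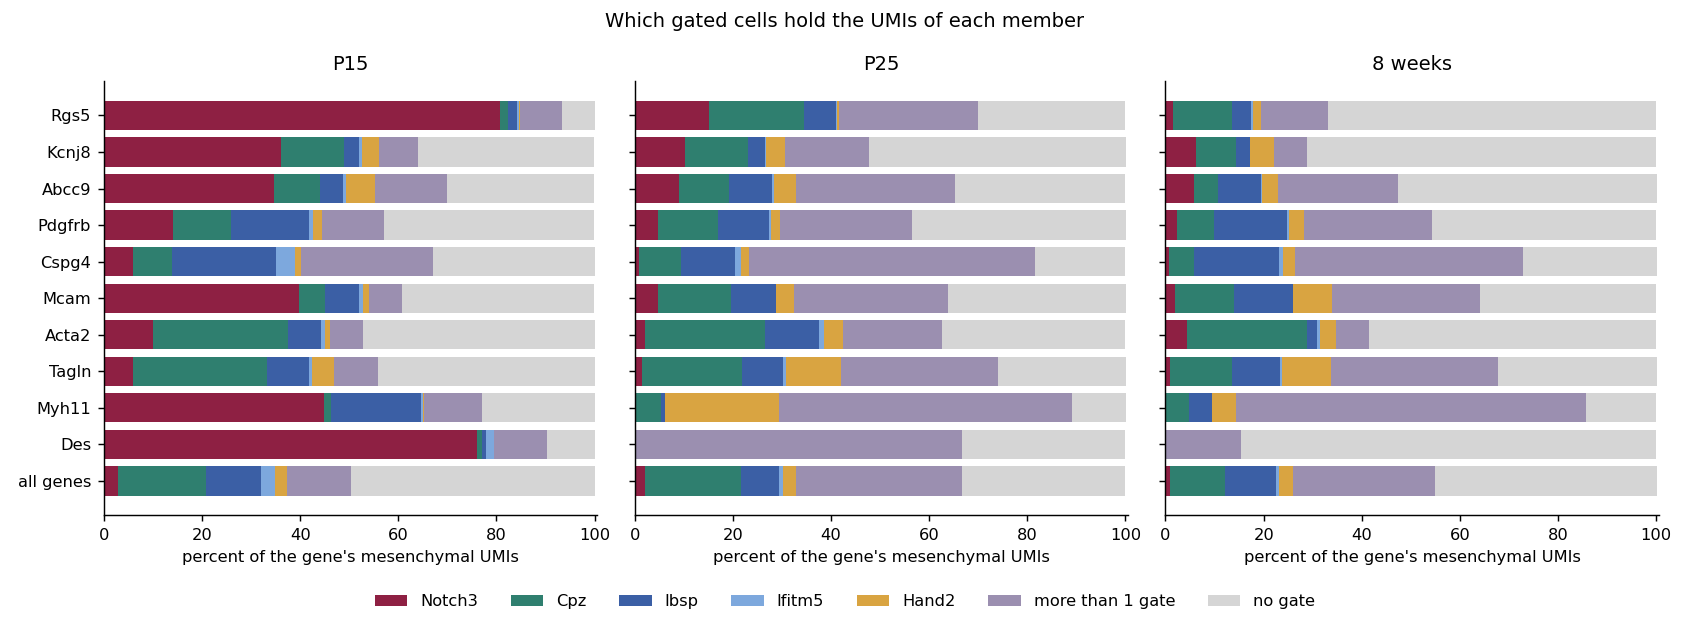
Percent of each member's mesenchymal UMIs that lay in each gate, in cells that passed more than 1 gate and in cells that passed none, with all genes together as the lowest bar, at P15, P25 and 8 weeks. The Notch3 gate holds 80.7% of the Rgs5 UMIs at P15 and 1.57% at 8 weeks.

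To compare shares of cells at 1 depth, each cell was thinned to 3000 UMIs, which left out 3499 shallower cells. In the order of age, Rgs5 was detected in 53.7%, 12.6% and 12.1% of the Notch3-gated cells (62.9%, 24.2% and 18.2% unthinned), and Kcnj8 in 47.2%, 15.9% and 15.2% (67.5%, 32.7% and 33.3% unthinned). Immune cells, which should lack both, had Rgs5 in 3.30% and 0% at P15 and P25 and Kcnj8 in 0.9% and 0%, at medians of 10469 and 15494 UMIs before thinning. At 8 weeks only 15 immune cells were deep enough, in which a count of 0 allows a share of up to 20%, so background is hardly known there. The Rgs5 shares of the Cpz (3.42%), Hand2 (3.31%) and Ifitm5 (1.90%) gates at P15 were at that background. Abcc9 was detected in 50.9%, 17.2% and 24.2% of the Notch3-gated cells and in 20.4%, 8.60% and 6.84% of the Hand2-gated cells, against 1.20%, 0.51% and 0% of immune cells.

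At least 3 of the 6 pericyte members were detected together, after thinning, in 159 of 322 Notch3-gated cells at P15 (49.4%, Clopper-Pearson interval 43.8 to 55.0%). At P25 it was 13 of 151 (8.61%, 4.66 to 14.3%) and at 8 weeks 1 of 33 (3.03%). Immune cells reached 0.45%, 0.51% and 0%. At least 2 of the 4 contractile members were detected in 20.2%, 3.97% and 15.2% of the Notch3-gated cells, 12.8%, 4.71% and 6.74% of the Cpz-gated cells and 6.08%, 6.99% and 3.42% of the Hand2-gated cells. Both criteria were met by 45 of 322 Notch3-gated cells at P15 (14%), by 0 of 151 at P25 and by 0 of 33 at 8 weeks, which allow shares of up to 1.99% and 9.09%. Over all mesenchymal cells, 54 of 8808, 1 of 7055 and 2 of 4055 met both.

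Levels were then followed over the number of Notch3 UMIs in a cell. At P15, Rgs5 was at 17.1 CPM in the 9366 cells with 0 Notch3 UMIs, 50.1 in the 581 cells with 1, 947 in the 249 cells with 2 to 4, 4320 in the 126 cells with 5 to 9 and 9394 in the 57 cells with 10 or more. Kcnj8 went from 13.2 over 36.1, 118 and 349 to 426 CPM, Abcc9 from 15.8 over 42.4, 158 and 395 to 605, and Pdgfrb from 86.0 over 107, 236 and 584 to 697. Each of these 4 genes was higher in every further bin. Acta2 (137, 221, 204, 533 and 1601 CPM), Tagln (137, 168, 134, 282 and 749) and Cspg4 (22.3, 16.0, 22.6, 35.6 and 103) were highest in the last bin without rising in each. At P25, Cspg4 (35.9, 19.0, 20.2 and 7.16 CPM over the first 4 bins) was highest in cells with 0 Notch3 UMIs, and Tagln was lower in the next 3 bins (66.4, 86.6 and 86.0) than in those cells. At 8 weeks Cspg4 went from 38.7 over 18.8 to 34.4 CPM and Tagln from 128 over 93.5 to 170. At P25, Abcc9 went from 16.6 over 37.1 and 55.6 to 127 CPM in the 30 cells with 5 to 9 Notch3 UMIs, and at 8 weeks from 22.5 over 52.6 to 156 CPM in the 39 cells with 2 to 4.

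**Figure D3:**
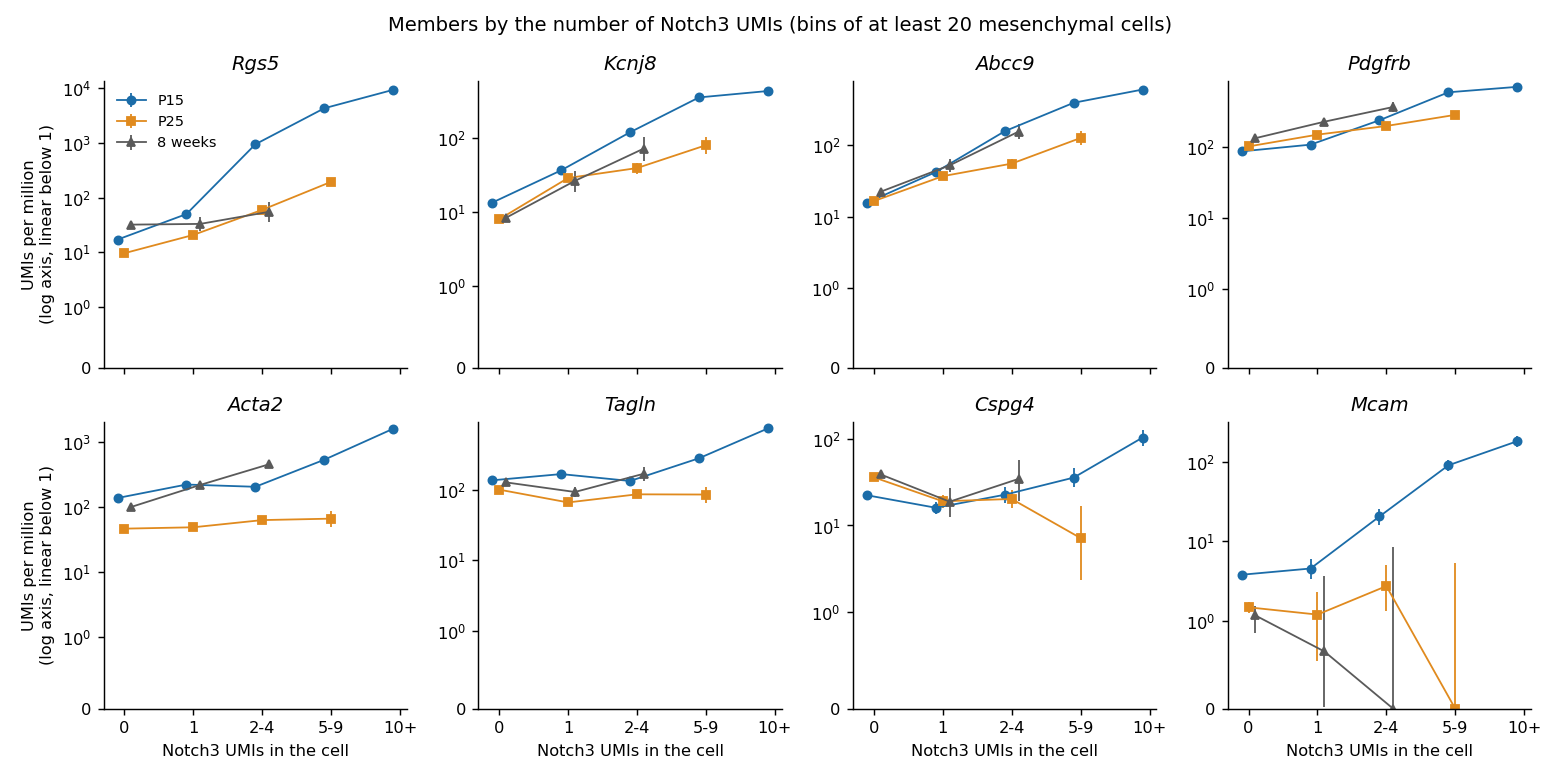
Level of 8 members in CPM (log axis, linear below 1) by the number of Notch3 UMIs in the mesenchymal cell, for the P15, P25 and 8-week libraries, with bars for exact 95% Poisson intervals and bins of at least 20 cells. Abcc9 rises with Notch3 in each library, and Rgs5 reaches 9394 at P15.

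Gates were compared by a test on UMIs summed per library and gate, 18 sums in all with the cells that passed no gate, with the library as a block (edgeR quasi-likelihood test, each gate against the mean of the other 4, Benjamini-Hochberg adjustment over 12298 genes). Here the p-values measure how much differences between gates varied over these 3 libraries, which are also 3 time points. Differences in level between libraries were taken up by the block. The spread was estimated over all gates and the cells that passed none, and not for the Notch3 gate alone. In the Notch3 contrast 14.2% of all genes tested were called higher at an adjusted p under 0.05. Of the 10 members 9 passed the filter on low counts, Des did not, and 7 were called higher: 5 of the 6 pericyte members and 2 of the 3 contractile members tested. Myh11 passed the filter only with the Notch3 sum of P15, where it was high, so its call adds nothing to its levels. The median log2 fold change of the 9 was 3.38, beside 0.00 over all genes.

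Rgs5 had a log2 fold change of 5.88 (SE 0.91, edgeR adjusted p = 0.000807), Kcnj8 of 3.88 (SE 0.28, edgeR adjusted p = 1.06e-06), Abcc9 of 3.38 (SE 0.35, edgeR adjusted p = 3.41e-05) and Pdgfrb of 1.97 (SE 0.21, edgeR adjusted p = 2.88e-05). These 4 genes were higher in the Notch3 gate than in each other gate in all 3 libraries. Without P15, Rgs5 had 3.09 (edgeR adjusted p = 0.0248), Kcnj8 3.19, Abcc9 2.54 and Pdgfrb 1.44, each still called. Mcam had 3.75 (SE 0.49, edgeR adjusted p = 9.88e-05), which without the P15 library was 2.60 (edgeR adjusted p = 0.135). Acta2 had 1.67 (SE 0.53, edgeR adjusted p = 0.0377), without P15 1.05 (edgeR adjusted p = 0.567) and without 8 weeks 1.36 (edgeR adjusted p = 0.149), so its call rested on both libraries. It was also lost with gates at 1 UMI (0.80), with further lineage genes at 0 (1.54), without the low-count filter (1.65) and against cells that passed no gate (1.49). Myh11 had 3.57 (SE 1.18, edgeR adjusted p = 0.0462), a value that depends on the prior count since it was at 0 in 2 of the 3 Notch3 sums, and its call was lost without 8 weeks (3.65), with gates at 1 UMI (2.57), without the highest doublet scores (4.67), without the low-count filter (3.56), under DESeq2 (2.47, adjusted p = 0.238) and against cells that passed no gate (4.08).

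Cspg4 (log2 fold change 0.13, SE 0.30, edgeR adjusted p = 0.821) and Tagln (0.09, SE 0.36, edgeR adjusted p = 0.914) were not called in the Notch3 gate. For both the libraries differed in direction, and without P15 both were called lower, Cspg4 at -1.03 (edgeR adjusted p = 0.00474) and Tagln at -0.80 (edgeR adjusted p = 0.00411). With cells thinned to 3000 UMIs and gated again on the thinned counts, Tagln was called higher at 1.71 (edgeR adjusted p = 0.0128). The Notch3 gate then held 155, 20 and 7 cells, so it was not the same set of cells at a lower depth. Measured against cells that passed no gate, 635 of 12298 genes were called, 424 of them higher. Of the 9 members tested 4 were called higher, and Rgs5 was not among them (4.96, edgeR adjusted p = 0.0521).

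In the Cpz gate 3.46% of all genes were called lower and so was 1 of the 9 members tested, Cspg4 at -1.20 (SE 0.27, edgeR adjusted p = 0.0114). That call was lost without the block for the library (-1.15, edgeR adjusted p = 0.0741) and without 8 weeks (-1.18). Acta2 was not called in the Cpz gate (0.74, SE 0.51, edgeR adjusted p = 0.427). In the Ibsp gate 8.12% of all genes were called higher, among the members Cspg4 at 1.03 (SE 0.24, edgeR adjusted p = 0.00979), and 6.80% lower, among the members Kcnj8 at -1.82 (SE 0.37, edgeR adjusted p = 0.00492). Both were lost without 8 weeks (1.05 and -1.78) and when cells were thinned to 3000 UMIs and gated again (0.56 and -1.55).

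In the Ifitm5 gate 8.30% of all genes were called lower, and 4 of the 9 members: Kcnj8 at -2.49 (SE 0.56, edgeR adjusted p = 0.00732), Abcc9 at -2.25 (SE 0.65, edgeR adjusted p = 0.0325), Pdgfrb at -1.36 (SE 0.29, edgeR adjusted p = 0.00621) and Tagln at -1.77 (SE 0.46, edgeR adjusted p = 0.0197). Here, as for Kcnj8 in the Ibsp gate, the other gates include the Notch3 gate, where Kcnj8, Abcc9 and Pdgfrb were highest. The Ifitm5 sums held 21, 3 and 0 UMIs of Kcnj8 and 26, 13 and 2 of Abcc9. The Cpz gate was lower for Abcc9 at P25 (10.4 against 12.3 CPM) and Pdgfrb at 8 weeks (92.4 against 96.9). Elsewhere the Ifitm5 gate was lowest for these 4 genes. Against cells that passed no gate, 2 of the 9 members were called lower and 1 higher, beside 875 lower and 1019 higher of all 12298 genes. The Abcc9 call was lost when any 1 library was left out (-1.26 without P15, -2.65 without P25, -2.31 without 8 weeks), the Tagln call without P25 (-2.01) or 8 weeks (-2.05), and the Kcnj8 call without the block (-2.22, edgeR adjusted p = 0.0583). In the Hand2 gate 7.70% of all genes were called higher and so was 1 member, Tagln at 1.78 (SE 0.32, edgeR adjusted p = 0.00321), or 1.45 without P25 (edgeR adjusted p = 0.0971). Myh11 was not called there (2.87, SE 1.41, edgeR adjusted p = 0.198) and turned to -2.13 without P25, the library with 60 UMIs in that gate against 1 in each of the others.

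**Figure D4:**
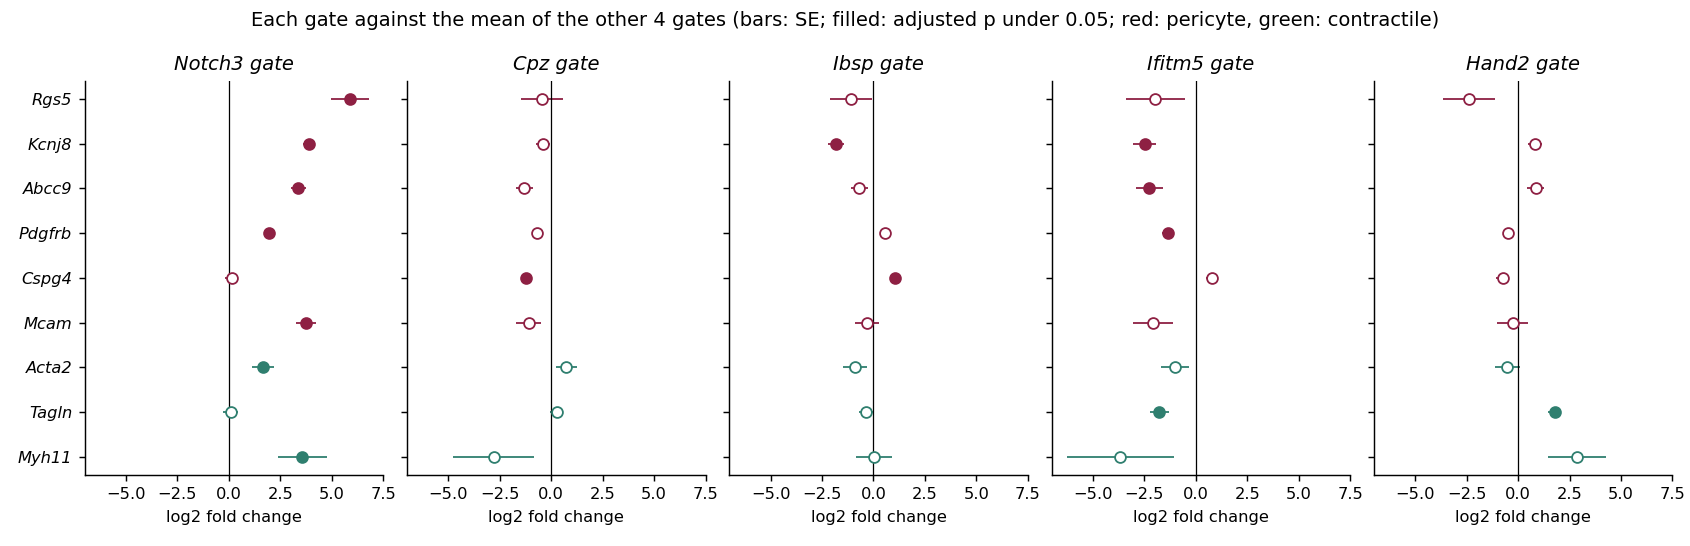
Log2 fold change of 9 members in each gate against the mean of the other 4 gates (edgeR, library as a block); bars are standard errors, filled points have an adjusted p under 0.05, red points are pericyte and green points contractile members. The Notch3 panel has 7 filled points to the right, led by Rgs5 at 5.88, and the Hand2 panel has Tagln at 1.78.

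Other genes of both kinds were listed by name beside the members. Of 18 further pericyte genes 12 were tested and 11 were called higher in the Notch3 gate, beside 14.2% of all genes. The median log2 fold change of the 12 was 3.39. The 4 largest were Heyl, a Notch target (5.37, SE 0.25, edgeR adjusted p = 1.52e-08), Steap4, a metalloreductase (5.05, SE 0.30, edgeR adjusted p = 1.93e-07), Vtn, vitronectin (4.73, SE 0.73, edgeR adjusted p = 0.000335), and Foxs1, a forkhead factor (4.38, SE 0.24, edgeR adjusted p = 3.47e-08). Heyl was at 161, 85.0 and 131 CPM in the Notch3 gate and at no more than 16.9 in any other, and Foxs1 at 90.0, 56.0 and 98.3 CPM against at most 8.46. Both were thus found in the Notch3 gate in each library, where Higd1b was at 0 in the later ones. Trpc6 was the gene tested and not called (1.33, SE 0.65, edgeR adjusted p = 0.165), and Vtn was not called against cells that passed no gate (2.80). Vtn was at 18.7, 6.66 and 13.7 CPM in the Notch3 gate and at no more than 3.84 elsewhere. Vtn and Tbx18 passed the low-count filter only through the Notch3 gate. Their calls add nothing to their levels, and the count of 11 and the median of 3.39 include both.

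Of 18 further contractile genes 11 were tested, with a median of 0.04, and 4 were called higher in the Notch3 gate, beside 14.2% of all genes. They were Lmod1, leiomodin (3.97, SE 0.33, edgeR adjusted p = 1.06e-06), Synpo2, an actin-bundling protein (3.05, SE 0.50, edgeR adjusted p = 0.000411), Mylk, myosin light chain kinase (1.72, SE 0.32, edgeR adjusted p = 0.00199), and Itga8, an integrin subunit (1.38, SE 0.32, edgeR adjusted p = 0.00633). Lmod1 was at 15.2, 4.31 and 8.19 CPM in the Notch3 gate and at no more than 1.14 elsewhere. It passed the low-count filter only through the Notch3 gate, so its call adds nothing to these levels. The Synpo2 call was lost without P15 (1.71), the Mylk call without P25 (1.78) and the Itga8 call without P15 (1.12), and Synpo2, Mylk and Itga8 were not called against cells that passed no gate (1.46, 1.38 and 0.09). The pericyte list as a whole thus lay well above the median of all genes, which was 0.00, and the contractile list close to it. In the Hand2 gate the contractile list had 4 genes higher and 1 lower of 11 tested, with a median of 0.42, and the pericyte list 0 higher and 1 lower of 12. Of all 12298 genes tested, 947 were called higher there and 897 lower.

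Over the 18 sums, the genes most like Rgs5 in log2(CPM + 10) were Ggt5 (Pearson r = 0.94), Pear1 (0.94), Plekhh3 (0.93) and Rasgrp2 (0.92), among those most like Pdgfrb were Lama4, Rhoj and Tnfrsf1a (0.94 each), and those most like Acta2 were Mylk (0.76), Sema6d (0.74), Gab1 (0.74) and Plxna2 (0.72). Sums of a library share its cells and depth, so these values describe a likeness only. All but Plxna2, which peaked in the Cpz gate at 8 weeks, had their highest level in the Notch3 gate at P15.

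Notch3-gated cells were divided by Rgs5, into 184, 19 and 5 cells with at least 2 Rgs5 UMIs and 122, 116 and 27 cells with 0 at P15, P25 and 8 weeks. At P15 the cells with Rgs5 held 511 CPM of Kcnj8 against 87.5 in those without, 556 against 150 of Abcc9, 803 against 184 of Pdgfrb, 163 against 9.33 of Mcam, 981 against 119 of Acta2 and 610 against 231 of Notch3. Higd1b (298 CPM, 642 UMIs) and Myh11 (103 CPM, 221 UMIs) were found in the cells with Rgs5 and had 0 UMIs in those without, and Des was at 70.1 against 2.33 CPM. Acta2, Myh11 and Des were thus higher in the same division of the gate at P15 as these pericyte genes, but not in most of its cells. Of the 184 cells with Rgs5, 38 held at least 10 Acta2 UMIs (20.7%) and 146 held fewer. The 6 epithelial markers went the other way, at 203 against 1395 CPM.

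At P25 the division was much weaker: Kcnj8 was at 44.6 and 54.5 CPM, Abcc9 at 113 and 90.3, Pdgfrb at 366 and 246 and Acta2 at 23.8 and 56.1, and the epithelial markers at 143 and 1789. At 8 weeks, with 5 cells with Rgs5, Abcc9 was at 320 and 127 CPM, Pdgfrb at 391 and 381 and Acta2 at 2201 and 254. Over the 3 libraries none of the 6 members tested was called between the divisions (edgeR). Of the 18 further pericyte genes 10 were tested and 2 were called higher in the cells with Rgs5, beside 10 of all 8880 genes. Of the 9 further contractile genes tested, 0 were called. Of the 8880 genes 0.360% were called in either direction, counting Rgs5, which made the division. Among the 6 members 2 had an unadjusted p under 0.05, and DESeq2 called 0. These 2 were Abcc9 (1.18, edgeR adjusted p = 0.144) and Cspg4 (1.06, edgeR adjusted p = 1). Without P25, 119 of 9066 genes were called, and 5 of the 7 members tested, among them Acta2 at 2.99 and Kcnj8 at 1.70. Without P15 the log2 fold change of Kcnj8 was -0.23 and that of Tagln -0.47. Mcam, Myh11 and Des did not pass the filter in the fit of all 3 libraries.

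Cells with high Acta2, at least 10 UMIs, numbered 641, 186 and 125 among mesenchymal cells at P15, P25 and 8 weeks. The Cpz gate held 183, 49 and 34 of them (14.2%, 4.26% and 8.72% of its cells) and the Notch3 gate 45, 4 and 6 (13.7%, 2.61% and 18.2% of its cells), against 1.11%, 0.508% and 0% of immune cells. Cells that passed no gate held 312, 76 and 72 of them (4.91%, 2.18% and 2.56%), and at P25 the Hand2 gate had the highest share (5.35%, 10 cells). These cells were not thinned, and deeper cells reach 10 UMIs more easily. At P15 the medians were 19398 UMIs in the Cpz gate, 11840 in the Notch3 gate, 12131 in no gate and 10469 in immune cells. The median of all mesenchymal cells was 8578 at 8 weeks against 14275 at P15. After thinning, Acta2 was detected in 22.5% of Cpz-gated and 27.3% of Notch3-gated cells at P15. Of the high-Acta2 cells in the Notch3 gate, 38 of 45, 0 of 4 and 2 of 6 also held at least 2 Rgs5 UMIs. Of those in the Cpz gate it was 16 of 183, 7 of 49 and 2 of 34. High Acta2 thus occurred mostly with Rgs5 in the Notch3 gate at P15 and mostly without it in the Cpz gate. Rgs5 itself, at 2 UMIs or more, was in 55.9% and 6.04% of all cells of these gates at P15. Of the P15 cells with Rgs5, 20.7% held high Acta2 in the Notch3 gate, 20.5% in the Cpz gate and 20.8% in no gate.

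The high-Acta2 cells of the Cpz gate carried more Tagln, Myl9 and Tpm2 than Cpz-gated cells with 0 Acta2 UMIs, and about as much Rgs5. Cpz-gated cells with some Acta2 UMIs, but too few to count as high, were in neither group. Myl9 and Tpm2 were named after their values were seen, so they do not stand for contractile genes in general. Tagln was at 641 CPM in them against 86.0 in Cpz-gated cells with 0 Acta2 UMIs at P15, 552 against 61.5 at P25 and 619 against 48.2 at 8 weeks. Myl9, a myosin light chain, was at 623 against 147, 392 against 72.9 and 558 against 125, and Tpm2, a tropomyosin, at 1148 against 546, 788 against 392 and 1222 against 431. Rgs5 was at 16.7 against 13.3, 18.5 against 13.8 and 20.5 against 29.7 CPM, with overlapping intervals in each library. Kcnj8 was at 22.0 [17.9, 26.8] against 14.1 [12.1, 16.2] at P15, 12.4 [6.75, 20.7] against 6.11 [5.03, 7.36] at P25 and 0 UMIs against 5.17 CPM at 8 weeks, so at P15 its interval lay higher in the high-Acta2 cells. Pdgfrb was at 61.4 against 68.1, 71.5 against 66.6 and 82.1 against 98.9 CPM, and the 8 mural markers summed to 129 against 131, 142 against 167 and 198 against 248. Myh11 reached 1.32, 7.06 and 0 CPM in the high-Acta2 cells, and the 8 UMIs at P25 came from 1 cell. Transgelin, myosin light chain and tropomyosin were thus higher in each library in the cells divided by Acta2, at medians of 23304, 22530 and 15707 UMIs per cell against 18075, 19609 and 12301.

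**Figure D5:**
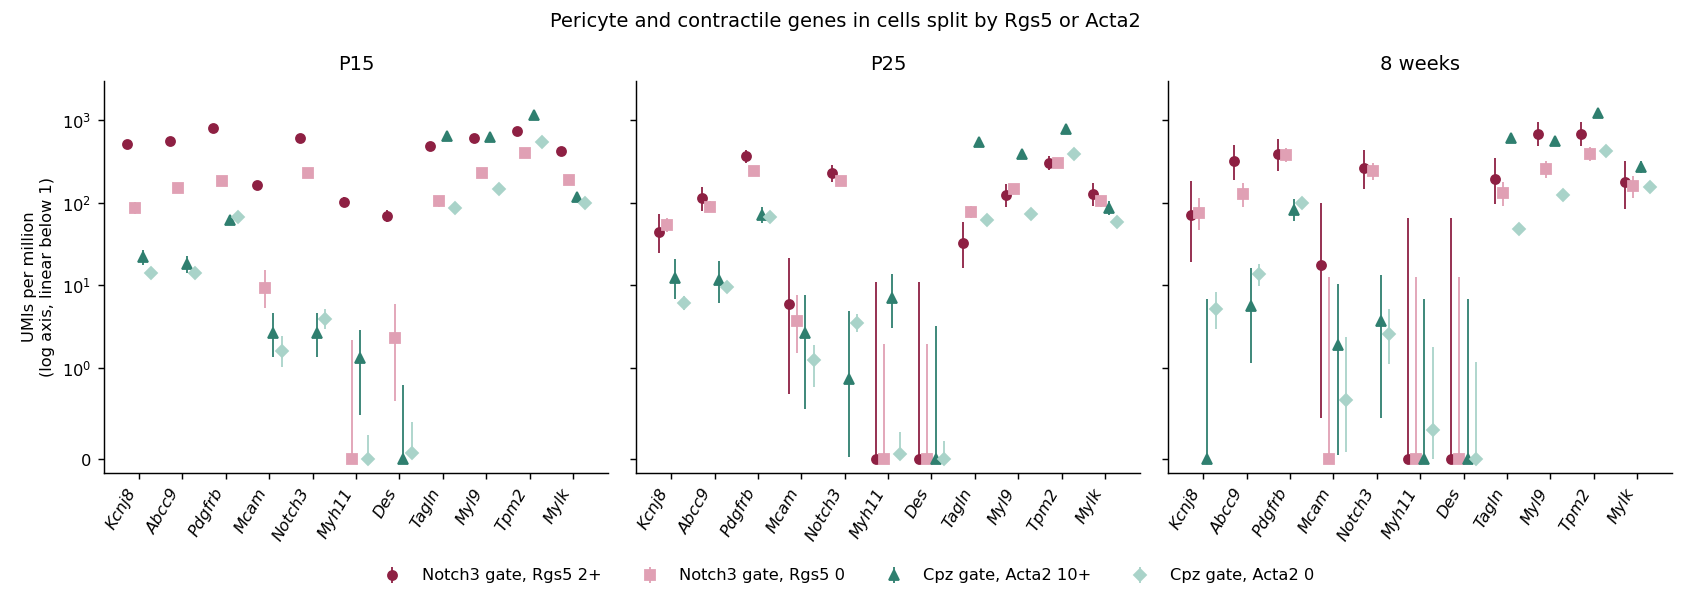
Level of pericyte and contractile genes in CPM (log axis, linear below 1) in Notch3-gated cells with at least 2 or with 0 Rgs5 UMIs and in Cpz-gated cells with at least 10 or with 0 Acta2 UMIs, at P15, P25 and 8 weeks; bars are exact 95% Poisson intervals. In the Cpz gate Tagln, Myl9 and Tpm2 differ between the divisions in each library (Tagln 641 against 86.0 at P15), and Pdgfrb stays between 61.4 and 98.9.

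The rarest members were traced to single cells. At least 2 Myh11 UMIs were found in 74, 32 and 1 mesenchymal cells. Of the 74, 25 lay in the Notch3 gate, 20 in the Ibsp gate and 22 in no gate, and together they held 4780 CPM of Rgs5, 2046 of Acta2 and 1162 of Tagln, although only 33 of the 74 held any Rgs5 UMI and 30 any Notch3 UMI. Of the 32 at P25, 20 passed the Hand2 gate and 1 the Notch3 gate, and together they held 769 CPM of Acta2, 1413 of Tagln and 149 of Hand2 but only 223 of Rgs5, from 4 cells. At least 2 Des UMIs were found in 37 cells at P15, 30 of them in the Notch3 gate, in 2 cells at P25 and in 4 at 8 weeks. The 37 held 10005 CPM of Rgs5, and the 6 later cells held 0 Rgs5 UMIs.

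Most cells with Rgs5 UMIs lay outside the Notch3 gate in each library, although the gate had the highest share of them. At least 2 Rgs5 UMIs were found in 638, 302 and 315 mesenchymal cells, of which the Notch3 gate held 184, 19 and 5 and cells that passed no gate 178, 113 and 208. These were 55.9%, 12.4% and 15.2% of the Notch3-gated cells, 6.04%, 7.31% and 10.8% of the Cpz-gated cells and 2.80%, 3.24% and 7.39% of the cells that passed no gate, against 1.66%, 1.52% and 0% of immune cells. The shares are of unthinned cells, and the last one is of 18 immune cells. At P15 the medians were 19398 UMIs in the Cpz gate and 10469 in immune cells. After thinning, Rgs5 was detected in 3.42%, 5.23% and 8.09% of the Cpz-gated cells. For immune cells it was 3.30%, 0% and 0%, so at P15 the Cpz gate was at background. At least 10 Rgs5 UMIs were found in 195, 17 and 5 cells, of which the Notch3 gate held 153, 5 and 1. Cells with at least 2 Rgs5 UMIs and 0 of Notch3 numbered 374, 234 and 296, and together held 16.6, 10.6 and 4.19 CPM of Kcnj8, 18.4, 18.7 and 6.59 of Abcc9 and 6133, 4508 and 4709 of Ibsp. At P15 and 8 weeks Kcnj8 and Abcc9 in these cells were below their level in all mesenchymal cells (24.2 and 29.7 CPM at P15, 9.51 and 25.3 at 8 weeks). At P25 they were close to that level (10.5 and 19.9 CPM). Ibsp in all mesenchymal cells was at 3413, 5410 and 7764 CPM, so it was higher in the Rgs5 cells at P15 and lower at P25 and 8 weeks.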

How the data were processed

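The authors deposited, for each of the 3 libraries, a table of UMI counts per gene and cell, which are raw counts with no normalization. Per the labels the reads were processed with Cell Ranger 6.1.2 and the mm10 build; the header of the P25 file names version 6.0.1 with 32293 features against 22056 in the others. The annotation behind the counts, and their treatment of strand, are not given in the sources used here, and a P6 library was not analysed here. The deposited barcodes were taken as cells, 27089 in all, with no further filter. Genes were joined by identifier, and the 21446 shared genes held 99.7%, 95.2% and 99.8% of the UMIs.

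The 10 members and all gene lists were chosen with earlier results of these data known. UMI counts of the 23161 mesenchymal cells were summed per library and gate, into 18 sums, and tested with edgeR 4.0.16 in R 4.3.3 (TMM, filterByExpr, robust quasi-likelihood fit, library as a block), with Benjamini-Hochberg adjustment over all genes and a threshold of 0.05. The block rests on the cells of a library having been prepared together. Deviations of sums of the same library from the gate means correlated in every pair (lowest Pearson r 0.31, 0.24 and 0.20 in the P15, P25 and 8-week libraries). Each library is also a different age, so preparation and age cannot be told apart in this correlation. DESeq2 1.42.0 was an alternative. Intervals of levels are exact Poisson, those of shares Clopper-Pearson, both at 95% and for counting error only; a count of 0 was read as up to 3 counts, except in the plotted intervals. Cells were thinned to 3000 UMIs for shares, with the gates of the unthinned cells kept. In the alternative fit with thinned cells, the gates and the mesenchymal rule were applied again to the thinned counts. Immune and epithelial reference cells had at least 2 UMIs of Ptprc or Epcam and 0 of the other 2 lineage genes, and endothelial ones of Pecam1.

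Scrublet (scanpy 1.11.5) called 438 (3.39%), 0 and 31 (0.597%) doublets in the 3 libraries, in the order of age, and its automatic threshold had therefore not worked on P25. Doublets were kept, and the cells with the highest 6% of scores were left out as an alternative. They were 16, 7 and 4 cells of the Notch3 gate. The text names all members, the 4 genes of each other list with the largest change among those called in the Notch3 contrast, and the 4 genes most like Rgs5, Acta2 and Pdgfrb by Pearson correlation over the 18 sums among genes that reached 50 CPM. Some of these genes and a marker list are not reported here. Trpc6, Tbx18, Higd1b, Myl9 and Tpm2 of these lists were named after their values were seen. The other alternatives changed the gates, the mesenchymal rule, the depth, the normalization, the low-count filter, the block, the reference of the contrast or left out 1 library. The fits were tested on simulated data.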

Additional observations from a re-analysis of the deposited data

Results flagged for a closer look

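The following ratios are log2 ratios of the CPM of one gate over that of the other 4 gates summed, within 1 library. They stand out because the libraries moved in opposite directions by at least 0.5, and with 1 library per time point none of these differences was tested. For Cspg4 in the Notch3 gate the ratio was 1.04 at P15 and -0.82 at P25, and for Tagln in the same gate 0.78 at P15 and -0.86 at P25. For Myh11 in the Notch3 gate it was 4.71 at P15 and, with the 0 UMIs of the P25 gate set to the floor of 3, -0.73 at P25 (the exact interval of the ratio reaches up to -0.40). Rgs5 in the Cpz gate was at 1.09 at 8 weeks, -5.61 at P15 and -0.78 at P25. The other gates include the Notch3 gate, which held most Rgs5 UMIs at P15. Tagln in the Cpz gate was at 0.56 at P15 and -0.64 at P25. Myh11 in the Hand2 gate was at 5.48 at P25, from 60 UMIs, and at -4.50 at P15, from 1 UMI.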

How the results depend on the processing

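Of 468 alternative values of single genes, 403 kept their direction and their side of the threshold, 50 kept the direction only and lost the call, 7 gained a call and 8 turned in direction; the cause was not tested in any case. Kcnj8, Abcc9 and Pdgfrb were called higher in the Notch3 gate under every alternative run, and Rgs5 under every one but the comparison with cells that passed no gate. The numbers of all genes called moved more. In the Notch3 contrast (2986) they were 1822 with gates at 1 UMI (3 for Ibsp), 4748 with overlapping gates, 1106 with cells thinned to 3000 UMIs and gated again, 635 against cells that passed no gate and 1127 to 2578 with 1 library left out. In the Cpz contrast (1340) they were 577 thinned and 289 to 1282 with a library left out, and in the Ibsp contrast (1834) 253 with overlapping gates, 761 thinned and 504 to 1598. In the Ifitm5 contrast (2367) they were 759 at 1 UMI, 3867 with overlapping gates, 1237 thinned and 638 to 2200, and in the Hand2 contrast (1844) 856, 3043, 289 and 275 to 1535. Between Notch3-gated cells with and without Rgs5 (32) they were 17 at 1 UMI, 10 thinned, 1 with stricter mesenchymal cells, 15 under DESeq2, 193 without the low-count filter and 1 to 119 with a library left out. The 32 include Rgs5, which made the division. Fitted without the block for the library, the counts were 1519 for Notch3, 418 for Cpz, 753 for Ibsp, 1240 for Ifitm5, 701 for Hand2 and 1 for the Rgs5 division; besides the Cspg4 call in the Cpz gate and the Kcnj8 call in the Ifitm5 gate, Itga8 in the Notch3 gate (1.36) lost its call without the block, and no other call of a named gene did.

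The members called changed as follows. For Notch3 (7) they were 4 against cells that passed no gate, and 5 to 7 with 1 library left out, of which the 6 without P15 include Cspg4 and Tagln as lower. For Cpz (1) they were 2 at 1 UMI, 2 with overlapping gates, 3 under DESeq2, 0 with stricter cells, 0 without the block, 0 against cells that passed no gate and 0 to 3 with a library left out. Beside them, 1571 of all 12729 genes were called at 1 UMI, 982 of 13688 with overlapping gates and 1898 of 12298 under DESeq2. With stricter cells it was 1075 of 11694, and against cells that passed no gate 1216 of 12298. For Ibsp (2) they were 1 at 1 UMI, 1 at 5 UMIs (30 for Ibsp), 1 with stricter cells, 0 with overlapping gates, 0 thinned and 0 to 3. All genes called there were 1544 of 12729 at 1 UMI, 1410 of 11721 at 5 UMIs and 1554 of 11694 with stricter cells. For Ifitm5 (4, all lower) they were 1 at 1 UMI, 8 with overlapping gates and 2 to 4. The 8 with overlapping gates and the 4 without P15 each include 1 called higher. For Hand2 (1, higher) they were 2 at 5 UMIs, 2 with overlapping gates, 2 under DESeq2 and 0 to 2, and for the Rgs5 division (0) 1 at 5 UMIs, 4 without the low-count filter and 0 to 5. In the Hand2 contrast 1710 of all 11721 genes were called at 5 UMIs and 2299 of 12298 under DESeq2. In the Rgs5 division 25 of 4180 genes were called at 5 UMIs. Of the Hand2 counts, the 2 at 5 UMIs and the 2 under DESeq2 each include 1 called lower. The direction turned for Cspg4 in the Notch3 gate with overlapping gates (-0.66), without the block (-0.07) and with a library left out (-1.03 to 0.64), and for Tagln there at 1 UMI (-0.28) and with a library left out (-0.80 to 0.53). It also turned for Myh11 in the Hand2 gate (-2.13 to 2.89) and, in the Rgs5 division, for Kcnj8 (-0.23 to 1.70) and Tagln (-0.47 to 1.52). The 33 Notch3-gated cells at 8 weeks limit every level there. Where a gene did not pass the low-count filter under an alternative, no value could be given.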
